A study of Mus musculus with 9 samples.

Results

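The nuclear genes for the structural subunits of respiratory complex I were compared between young and old mouse kidneys. Members were chosen by symbol alone, as every gene of the deposited table whose name starts with Nduf, then a, b, c, s or v, then a number. This rule took 38 of the 13081 genes in the table. It left out the Ndufaf assembly factors and the acyl carrier subunit Ndufab1, and it used no measured value. Of the 38 genes, 36 encode subunits of complex I. The other two, Ndufa4 and Ndufa4l2, carry the name for historical reasons. Ndufa4 is now placed in complex IV, and Ndufa4l2 is its hypoxia-induced relative.

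Kidney RNA came from wild-type mice aged 3 months (young, n = 4) or 16 months (old, n = 5), with no treatment named, and was sequenced from the 3′ ends of transcripts. The table held 5093029 to 6355095 reads per young library and 4486406 to 5794960 per old library. Values are normalized counts, that is, reads divided by 1 size factor per library, and a gene is said to have risen or fallen when its adjusted p-value in limma (Benjamini-Hochberg, over 12667 genes tested) was under 0.05. All 38 members had enough reads to be tested. Library titles carry one prefix in young and another in old mice, so a difference in handling between the prefixes and a difference in age cannot be told apart. All 10 listed proximal tubule markers, the defining genes of the main kidney cell type, were in the table.

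Complex I is the entry point of the respiratory chain. It takes electrons from NADH, passes them along iron-sulfur clusters to ubiquinone and pumps protons across the inner mitochondrial membrane. Its matrix arm holds the N module, which oxidizes NADH, and the Q module, which reduces ubiquinone. Its membrane arm holds the proton pumps, which are encoded by mitochondrial DNA, surrounded by small nuclear-encoded supernumerary subunits that stabilize the complex. The proximal tubule of the kidney depends on mitochondrial respiration to reabsorb filtered solutes.

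Most subunit transcripts were lower in old kidneys. Of the 38 members, 28 fell, 5 rose and 5 did not pass the test. Over all genes tested, 30.5% fell and 29.2% rose. The median log2 fold change of the members was -0.69 (range -3.79 to 1.18), against -0.00 over all genes. In 29 members every old library lay below every young one, and in 3 every old library lay above, where the shares over all genes were 25.7% and 23.3%. Of the members that passed the test, 13 fell and 1 rose by at least 2-fold, where the shares over all genes were 13.9% and 9.93%. Without Ndufa4 and Ndufa4l2, 27 of 36 subunits fell and 5 rose, with a median of -0.64. Fewer members fell, and their median was less negative, with a trend with transcript length removed, as given below.

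**Figure D1:**
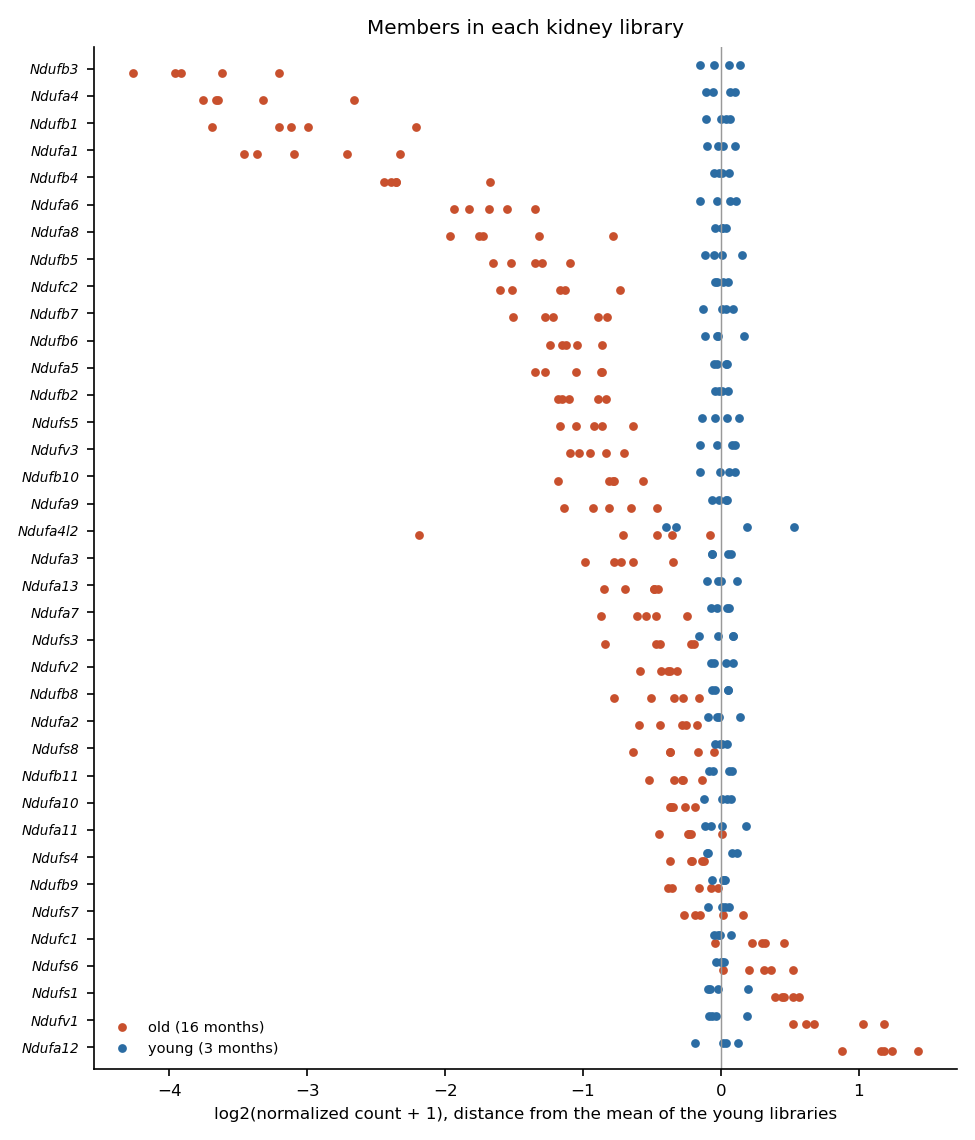
Level of each of 37 members in each library, on the log2 scale of normalized counts plus 1 and relative to the mean of the 4 young libraries (blue), with the 5 old libraries in orange. Genes are ordered by log2 fold change from Ndufb3 at the top (-3.79) to Ndufa12 at the bottom (1.18), and the young points stay close together where the old points spread.

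The deepest falls were in small supernumerary subunits of the membrane arm. Ndufb3, a distal membrane arm subunit encoded on chromosome 1 (chr1:58586384-58595964, GRCm38, plus strand), had 2032, 2190.1, 2311 and 1895 normalized counts in the young libraries. In the old libraries it had 108, 226, 170.4, 134 and 138. The lowest young library was thus several times above the highest old one. The mean went from 2107 ± 182 (SD, n = 4) to 155 ± 45.3 (SD, n = 5), with a fitted log2 fold change of -3.79 (standard error 0.15, limma adjusted p = 7.97e-13).

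Ndufb1, another distal subunit, had 981, 885, 953 and 1001 normalized counts in young kidneys and 73.1, 206, 102, 109 and 119 in old kidneys. Its log2 fold change was -3.04 (standard error 0.19, limma adjusted p = 2.5e-10). Ndufa1, a small X-linked subunit of the proximal membrane arm that is needed for assembly (chrX:37187588-37191163, GRCm38, minus strand), had 2322, 2181, 2129 and 2017 in young and 196, 429, 329, 252 and 209 in old kidneys. It fell by 2.99 on the log2 scale (standard error 0.17, limma adjusted p = 5.25e-11). In both genes the age groups were far apart, and among the old libraries replicate 2 came closest to the young ones.

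Ndufb4, also of the distal arm, had 1506, 1529, 1584 and 1473 normalized counts in young kidneys and 297, 476, 297, 289 and 279 in old kidneys, giving a log2 fold change of -2.24 (standard error 0.13, limma adjusted p = 7.59e-11). Here 4 old libraries were almost equal and old replicate 2 stood above them. Ndufa4, the complex IV subunit, had 2789, 2725, 2495 and 2407 in young and 206, 409, 259.6, 204 and 191 in old kidneys, giving a log2 fold change of -3.41 (standard error 0.16, limma adjusted p = 7.04e-12). Its fall was therefore of the size seen in the most lowered complex I subunits, although it is not one of them.

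Opposite to these, 2 genes of the N module showed the largest rises. Ndufa12, an accessory subunit of the matrix arm encoded on chromosome 10 (chr10:94198720-94221443, GRCm38, plus strand), had 1126, 907, 1043 and 1060.1 normalized counts in young kidneys and 2344, 2310.3, 1891, 2775 and 2436 in old kidneys. The mean rose 2.27-fold, from 1034 ± 92.2 (SD, n = 4) to 2351 ± 316 (SD, n = 5), and the fitted log2 fold change was 1.18 (standard error 0.11, limma adjusted p = 2.84e-08). Ndufv1, the core subunit that binds FMN and NADH, had 1331, 1288, 1302 and 1553 in young and 2181, 1960.2, 2092, 3099.7 and 2785 in old kidneys. Its log2 fold change was 0.81 (standard error 0.12, limma adjusted p = 1.77e-05). Every old library was above every young one in both genes.

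Ndufs1, the large core subunit that carries iron-sulfur clusters, had 471, 389, 384 and 405 normalized counts in young kidneys and 539, 608, 590.2, 559 and 565 in old kidneys. Its log2 fold change was 0.48 (standard error 0.10, limma adjusted p = 0.000304), and the groups did not overlap. The remaining pair of rises was smaller and the groups overlapped. Ndufs6, a zinc-binding subunit of the N module, had 1699, 1713, 1729 and 1660.3 in young and 2116, 1961, 1715, 2445 and 2186 in old kidneys, giving a log2 fold change of 0.28 (limma adjusted p = 0.0191). This call was lost without old replicate 4 (adjusted p = 0.0562).

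Ndufc1, a small subunit of the proximal membrane arm, had 1907, 1755, 1809.9 and 1793 normalized counts in young kidneys and 2267, 2125, 1759, 2499 and 2234 in old kidneys. Its log2 fold change was 0.25 (limma adjusted p = 0.0352). In both Ndufs6 and Ndufc1 old replicate 3 was within the young range and the other 4 old libraries were above it. The call of Ndufc1 was lost when any one of old replicates 1, 4 or 5 or young replicates 2, 3 or 4 was left out (adjusted p = 0.0551 to 0.0947), and also when libraries were scaled to the table total (adjusted p = 0.056).

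**Figure D2:**
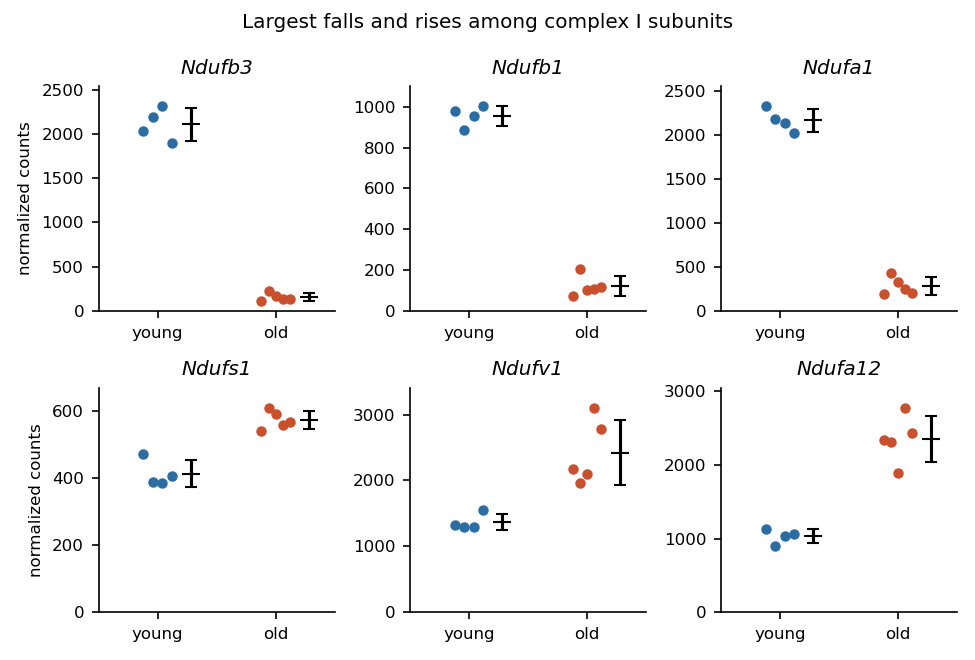
Normalized counts per library (points) of 3 members that fell and 3 that rose, in young (n = 4) and old (n = 5) kidneys, with the mean and SD in black and each axis starting at 0. Ndufb3, Ndufb1 and Ndufa1 drop from means of 2107, 955 and 2162 to 155, 122 and 283, whereas Ndufs1, Ndufv1 and Ndufa12 reach means of 572, 2423 and 2351.

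The members were then ordered by their place in the complex. In the N module, 5 of 10 subunits fell and 4 rose, with a median log2 fold change of -0.28. In the Q module 5 of 6 fell and 0 rose (median -0.56). In the proximal membrane arm 7 of 9 fell and 1 rose (median -0.70), and in the distal membrane arm 10 of 11 fell and 0 rose (median -1.08). Of the 5 members that rose, 4 thus belong to the N module. Ndufa6, Ndufa7, Ndufa9 and Ndufa11 are placed differently by different authors, so counts and medians hold for the placement used here. These groups were not tested against each other, and over all genes tested 30.5% fell and 29.2% rose.

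Within the N module, Ndufa6 had the largest fall (log2 fold change -1.67), followed by Ndufv3 (-0.92), Ndufa7 (-0.55), Ndufv2 (-0.42) and Ndufa2 (-0.35). In the Q module, the accessory subunits Ndufa5 (-1.08) and Ndufa9 (-0.80) fell, and its core subunits are described below. In the proximal membrane arm, Ndufa1 was followed by Ndufa8 (-1.51), Ndufc2 (-1.23), Ndufs5 (-0.93), Ndufa3 (-0.70), Ndufa13 (-0.60) and Ndufa10 (-0.30). Ndufa8 and Ndufs5 are twin-CX9C proteins of the intermembrane space, and Ndufa13 is also known as GRIM-19. In the distal membrane arm, Ndufb3, Ndufb1 and Ndufb4 were followed by Ndufb5 (-1.39), Ndufb7 (-1.14), Ndufb6 (-1.08), Ndufb2 (-1.03), Ndufb10 (-0.82), Ndufb8 (-0.41) and Ndufb11 (-0.31). All of these genes had a limma adjusted p-value under 0.05. With a trend of the values with transcript length removed from each library, the calls of Ndufa7 (log2 fold change -0.21, limma adjusted p = 0.0778), Ndufa2 (-0.01, 0.933), Ndufa10 (-0.20, 0.0577), Ndufb8 (-0.21, 0.0979) and Ndufb11 (-0.01, 0.946) were lost. After rescaling without the mitochondrial genes, those of Ndufa2 (limma adjusted p = 0.0551), Ndufa10 (0.106) and Ndufb11 (0.101) were lost.

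**Figure D3:**
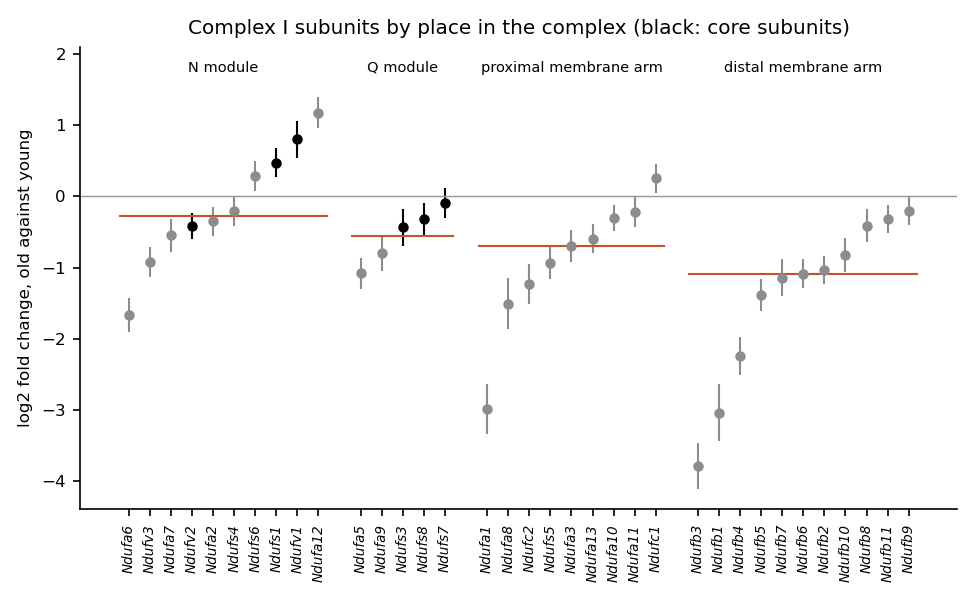
Log2 fold change of old against young kidneys with its 95% confidence interval for 35 complex I subunits, grouped by place in the complex, with core subunits in black, accessory subunits in grey and the median over all members of each group as an orange line. The medians are -0.28 in the N module, -0.56 in the Q module, -0.70 in the proximal and -1.08 in the distal membrane arm.

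The 7 nuclear core subunits, which carry the flavin and the iron-sulfur clusters and are conserved from bacteria, are described next. Of these 7, 4 fell, 2 rose and 1 did not pass the test, where 30.5% of all genes fell and 29.2% rose. Their median log2 fold change was -0.32, and 0 fell by 2-fold or more. With the length trend removed, the calls of Ndufs3 (log2 fold change -0.15, limma adjusted p = 0.28), Ndufs8 (-0.02, 0.848) and Ndufv2 (-0.19, 0.077) were lost, and that of Ndufs8 was also lost after rescaling without the mitochondrial genes (limma adjusted p = 0.181). Of the 29 supernumerary subunits, 23 fell and 3 rose, with a median of -0.82, and 12 fell by 2-fold or more (13.9% over all genes). The median annotated transcript length was 1312 bases for core and 704 bases for supernumerary subunits.

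Ndufs3, a core subunit of the Q module, had 577, 487, 535 and 578 normalized counts in young kidneys and 474, 399, 302, 468 and 393 in old kidneys (log2 fold change -0.43, standard error 0.12, limma adjusted p = 0.00528). Its highest old library stayed below its lowest young one, by a narrow gap. Ndufv2, the iron-sulfur partner of Ndufv1, had 1396, 1533, 1481 and 1376 normalized counts in young kidneys and 1069, 1109, 961, 1119 and 1162 in old kidneys (log2 fold change -0.42, standard error 0.09, limma adjusted p = 0.000491). Ndufs8, which carries a pair of iron-sulfur clusters, had 709, 736, 755 and 729.7 in young and 708, 652, 568, 566 and 471 in old kidneys (log2 fold change -0.32, standard error 0.11, limma adjusted p = 0.0175). For Ndufs8, old replicate 1 was level with the lowest young library. Ndufs7, which carries the last cluster before the quinone, had 590.5, 656, 632 and 644 in young and 705, 638, 522, 566 and 552 in old kidneys, and its log2 fold change of -0.09 did not pass the test (standard error 0.10, limma adjusted p = 0.473). Its highest library was an old one.

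The other 4 members that did not pass the test all had lower means in old kidneys. Ndufs4, an accessory subunit of the N module, had 605, 705, 687 and 607 normalized counts in young kidneys and 559, 596, 563, 591 and 502 in old kidneys (log2 fold change -0.21, limma adjusted p = 0.0619). Its groups did not overlap. Ndufa11, a membrane subunit, had 1184, 1152, 1252 and 1413 in young and 1062, 1056, 914, 1254 and 1070.4 in old kidneys (-0.23, limma adjusted p = 0.0604). Ndufb9 had 2594, 2619.6, 2628 and 2454 in young and 2535, 2300.4, 2010, 2451 and 1970 in old kidneys (-0.20, limma adjusted p = 0.0807). In Ndufa11 and Ndufb9 the highest old libraries reached into the young range. Scaled to the table total, all 3 of these genes were called lower in old kidneys (limma adjusted p = 0.0299 for Ndufs4, 0.0171 for Ndufa11 and 0.0239 for Ndufb9). Each was also called lower with 1 old library left out. This was replicate 2 for Ndufs4 (0.0441), replicate 4 for Ndufa11 (0.0208) and replicate 1 for Ndufb9 (0.0439). With the length trend removed, none was called and the signs of Ndufa11 and Ndufb9 turned. The values were -0.05 for Ndufs4 (limma adjusted p = 0.644), 0.11 for Ndufa11 (0.332) and 0.13 for Ndufb9 (0.231).

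Ndufa4l2 was the only member with few reads. It had 14.7, 15.5, 22.6 and 29 normalized counts in young kidneys and 3.54, 18.6, 15.2, 14 and 11.7 in old kidneys, and its log2 fold change of -0.76 did not pass the test (standard error 0.39, limma adjusted p = 0.101). The groups overlapped, and old replicate 1 was the lowest of the 9 libraries.

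Subunits that work as neighbors could thus move in opposite directions, as Ndufv1 rose and Ndufv2 fell, although the fall of Ndufv2 did not pass the test with the length trend removed (limma adjusted p = 0.077). The ratio of Ndufv1 to Ndufv2 normalized counts, which does not depend on how libraries are scaled, was 0.953, 0.840, 0.879 and 1.13 in the young libraries and 2.04, 1.77, 2.18, 2.77 and 2.40 in the old ones. This ratio was higher in every old library than in any young one. The widest contrast, Ndufa12 to Ndufb3, went from 0.495 ± 0.0733 (SD, n = 4) to 16.2 ± 5.32 (SD, n = 5). The pairs were picked after their values had been seen, so the ratios are descriptions and were not tested. They compare libraries and are not ratios of molecules, since genes can differ in how well their 3′ ends are captured.

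The members together took 1.13% to 1.16% of the reads in young libraries and 0.652% to 0.748% in old libraries. Mitochondrially encoded transcripts took 27.0% to 29.7% of the reads in young and 35.8% to 38.1% in old libraries, and mitochondrial rRNA alone 2.98% to 4.46% and 21.8% to 25.4%. Among reads from all other genes, the members took 1.57% to 1.61% in young and 1.05% to 1.20% in old libraries, so their share was lower in old kidneys on this scale too. After rescaling without the mitochondrial genes, which shifted the median of all genes by 0.14, 24 members fell and 5 rose, where 25.1% of all genes fell and 35.4% rose.

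All 5 old libraries shared the pattern, to differing degrees. The median distance of the members from the young mean, on the log2 scale, was -0.57, -0.44, -0.81, -0.67 and -0.84 in old replicates 1 to 5. Old replicate 2 was the nearest to the young mean for 19 of the 33 members that fell or rose. This library also stood nearer to the young ones over all genes, at 34.0 on the first principal component, where the other old libraries were at 47.2 to 56.5 and the young ones at -63.9 to -59.0. Between 31 and 33 members were below the lowest young library in each old library, and 3 to 6 were above the highest. The old libraries were also more variable. The median SD of the members on the log2 scale was 0.224 in old and 0.0885 in young libraries, and the SD was larger in old for 35 of 38 members. Over all genes the medians were 0.280 and 0.184.

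In bulk tissue, fewer cells of a type and less RNA per cell cannot be told apart. Of the 10 proximal tubule markers, 4 fell and 4 rose, where 30.5% of all genes fell and 29.2% rose. Their summed level was 48854 to 52282 normalized counts in young and 48476 to 63525 in old libraries. Among the 5 intercalated cell markers, 4 fell and 1 rose, with sums of 698 to 812 in young and 489 to 599 in old libraries. Of the 7 immune markers in the table, 6 were tested, 4 rose and 0 fell, with sums of 787 to 960 in young and 1067 to 1479 in old libraries, and of 5 endothelial markers 3 rose and 0 fell, with sums of 1014 to 1167 and 1425 to 1675. Summed thick ascending limb markers (1 of 4 rose) were at 7270 to 7960 in young and 8391 to 11748 in old libraries, and those of the distal convoluted tubule (2 of 4 fell and 2 rose) at 3231 to 4071 and 4774 to 5885. Podocyte markers (1 of 4 fell and 2 rose) summed to 507 to 550 in young and 386 to 443 in old libraries. Of 6 principal cell markers 3 fell and 0 rose, with sums of 2210 to 2873 and 1056 to 3497, and of 4 fibroblast markers 3 fell and 0 rose, with sums of 764 to 980 and 428 to 865. Of 4 adipocyte markers, 3 were tested, 1 fell and 0 rose, with sums of 271 to 1427 and 56.0 to 1033. The ranges of the summed proximal tubule markers thus overlapped between the ages. Among these markers Slc34a1 had the highest mean, 18725 in young and 19329 in old libraries. Their log2 fold changes ran from -1.26 (Slc22a6) to 1.63 (Slc5a12). The part of cell composition in the subunit changes was not tested.

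Genes that work with the nuclear subunits were examined next. Ndufab1, the acyl carrier protein that is also a complex I subunit, fell (log2 fold change -1.21). Of the 18 assembly factors in the table, 10 fell and 2 rose (30.5% and 29.2% over all genes), with a median of -0.58. Ecsit fell most, from 369 ± 37.5 (SD, n = 4) to 83.4 ± 11.9 (SD, n = 5) normalized counts, with a log2 fold change of -2.14. Ndufaf1, a factor for the early membrane arm, rose by 0.43 on the log2 scale (limma adjusted p = 0.0402) with overlapping groups.

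The 7 subunits encoded in mitochondrial DNA form the proton-pumping core and are cut from long shared precursors. Of these, 4 were lower and 3 higher in old kidneys by the limma test. The 3 include mt-Nd4l, which passed the filter for testing only through its old libraries. mt-Nd4 fell from 438848 ± 26284 (SD, n = 4) to 141094 ± 11860 (SD, n = 5) normalized counts, a log2 fold change of -1.64. mt-Nd3 (-1.13), mt-Nd1 (-1.01) and mt-Nd6 (-0.85) also fell. mt-Nd2 (0.94) and mt-Nd5 (0.90) rose. The gene of mt-Nd4l (3.67) overlaps that of mt-Nd4, and its mean was only 3.56 normalized counts in the 4 young libraries. It had 1.94 to 5.73 normalized counts in the young libraries and 38.5 to 69.0 in the old ones. The groups did not overlap, but with so few young reads the size of this change is uncertain. The share of mitochondrial rRNA was higher in every old library, as given above, and its part in these values was not tested.

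The nuclear subunits of the other complexes were counted in the same way, without a test against complex I. Over complexes II to V, 32 of 42 subunits fell and 4 rose, where 30.5% of all genes fell and 29.2% rose. Their median log2 fold change was -0.64. In complex II, 3 of 4 fell and 1 rose (median -1.64), from Sdhd (-3.69) to Sdha (0.29), the flavin subunit. In complex III, 5 of 9 fell and 2 rose (median -0.24), from the Rieske protein Uqcrfs1 (-2.90) to the hinge protein Uqcrh (0.57). The median of complex III turned positive when a trend with transcript length was removed (0.10).

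In complex IV, 9 of 12 fell and 1 rose (median -0.88). Cox7c fell most, from 10003 ± 967 (SD, n = 4) to 425 ± 236 (SD, n = 5) normalized counts, with a log2 fold change of -4.68, and Cox4i1 rose by 0.28 on the log2 scale with overlapping groups. In complex V, the ATP synthase, 15 of 17 fell and 0 rose (median -0.62), from Atp5g2 (-3.53) to Atp5l (0.05, limma adjusted p = 0.722). Of 14 other genes of mitochondrial membranes, import and matrix, 12 fell and 1 rose (median -0.94), from the ADP/ATP carrier Slc25a5 (-3.26) to the channel Vdac3 (0.65).

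**Figure D4:**
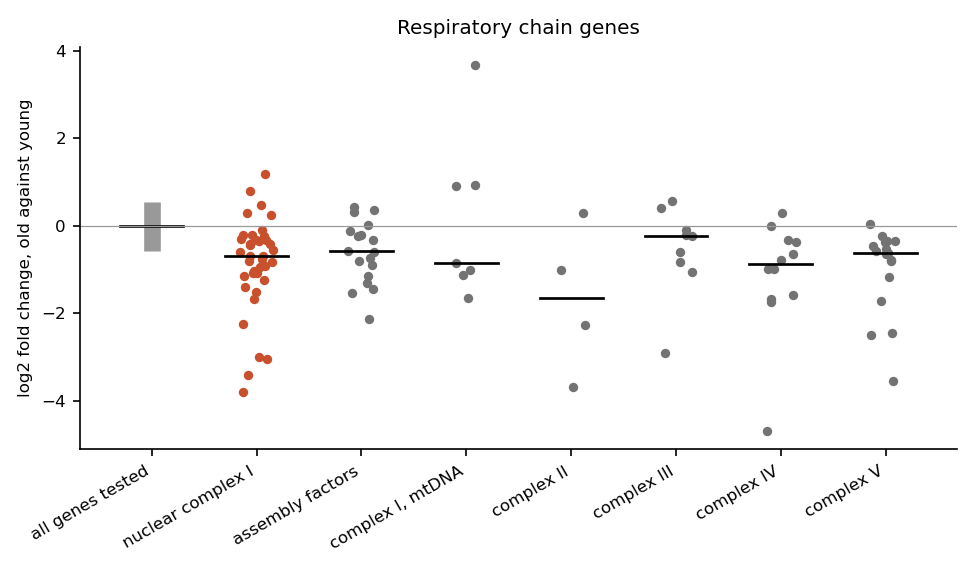
Log2 fold change of old against young kidneys for each gene (points) in the nuclear complex I members (orange), the assembly factors, the mitochondrially encoded complex I subunits and the nuclear subunits of complexes II to V, with the median as a black line and the interquartile range of all genes tested as a grey bar. The medians are -0.69 for the members and -0.64 over complexes II to V, against -0.00 for all genes.

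Of 14 regulators of respiratory genes, 3 fell (21.4%) and 4 rose (28.6%), shares near those over all genes (30.5% and 29.2%). Their median log2 fold change was -0.14. It turned positive with genes of shared sequence left out or with a mean of at least 100 normalized counts. Esrra, a nuclear receptor that activates respiratory genes, fell from 363 ± 33.0 (SD, n = 4) to 122 ± 25.7 (SD, n = 5) normalized counts, a log2 fold change of -1.59 (standard error 0.14, limma adjusted p = 2.02e-08). Tfam, which packages and transcribes mitochondrial DNA, fell by 0.84 on the log2 scale. Gabpa, the DNA-binding part of the ETS factor also called NRF-2, rose by 0.87 (standard error 0.21, limma adjusted p = 0.00152), whereas its partner Gabpb1 fell by 0.99. Ppargc1a, the coactivator PGC-1α, had 251, 324, 294 and 279 normalized counts in young and 337, 308, 355, 326 and 281 in old kidneys, and its log2 fold change of 0.17 did not pass the test (limma adjusted p = 0.201). Nrf1 also did not pass (log2 fold change 0.32, limma adjusted p = 0.147).

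Binding motifs of these factors were looked for in the promoters of the members, to show which of them carry such letters near their start sites. RefSeq promoter windows (GRCm38.p6, 250 bases before to 50 bases after the start) were matched for 33 of 38 members, in 35 windows. Ndufa2, Ndufa4l2, Ndufb9 and Ndufs1 were among those with no window. On either strand, the YY1 motif AAGATGGC was in 7 of the 33 members (21.2%) and in 5.29% of all table genes with a window. The NRF1 motif GCGCATGC was in 3 (9.09% against 5.76%), the ETS motif CCGGAAGT in 1 (3.03% against 8.98%) and the estrogen-related receptor motif TCAAGGTCA in 0 (0.00% against 0.305%). Over all 32851 promoter windows, 2.75% held the YY1 motif, 2.71% the NRF1 motif, 3.89% the ETS motif and 0.423% the receptor motif. Yy1 itself rose by 0.86 on the log2 scale (limma adjusted p = 9.87e-07).

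The 7 YY1 matches are shown because all of them lay after the RefSeq start site and read in the direction of the gene. They began at base 23 to 39, counted from that start as base 1. Each line gives 30 bases, 5′ to 3′ on the strand of the gene, with the motif in capitals.
Ndufa3 (chr7:3617384-3617413, plus strand): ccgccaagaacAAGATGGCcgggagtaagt
Ndufa9 (chr6:126849097-126849126, minus strand): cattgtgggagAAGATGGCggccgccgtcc
Ndufb8 (chr19:44555393-44555422, minus strand): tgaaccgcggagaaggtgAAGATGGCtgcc
Ndufc1 (chr3:51408915-51408944, minus strand): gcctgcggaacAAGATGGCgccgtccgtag
Ndufs4 (chr13:114388045-114388074, minus strand): gcgtttgcctacaggAAGATGGCggcggtc
Ndufs6 (chr13:73328433-73328462, minus strand): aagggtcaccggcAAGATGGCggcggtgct
Ndufs7 (chr10:80249462-80249491, plus strand): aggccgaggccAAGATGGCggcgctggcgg
The motif holds the letters ATG, and whether this is the start codon of each gene was not tested. The log2 fold changes of these 7 members ran from -0.80 (Ndufa9) to 0.28 (Ndufs6), with a median of -0.21. The 26 members without the motif had a median of -0.98 and ran from -3.79 to 1.18. This split was seen after the values were known and was not tested.

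The NRF1 matches are shown because they lay before the RefSeq start site, in 3 members that did not respond alike. For Ndufa8 the bases shown lie within the GENCODE span of the gene (chr2:36036326-36049406), so there the annotations differ.
Ndufa6 (chr15:82354356-82354385, minus strand): tccgcggtagaGCATGCGCattgcagagcc
Ndufa8 (chr2:36049328-36049357, minus strand): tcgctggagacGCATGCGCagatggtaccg
Ndufa11 (chr17:56717691-56717720, plus strand): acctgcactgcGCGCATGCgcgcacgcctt
Ndufa6 (log2 fold change -1.67) and Ndufa8 (-1.51) fell, and Ndufa11 (-0.23) did not pass the test. In Ndufa11 the motif is also present on the other strand, overlapping the one shown. A match is a description of the letters and not a measured binding site. Neither Ndufb3 and Ndufb1 nor Ndufv1 and Ndufa12 held any of the 4 motifs in their windows.

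Members with short transcripts had lower fold changes. Across the 38 members, the log2 fold change and log2 annotated transcript length had a Pearson's r of 0.36 and a Spearman's rho of 0.37, and over 12594 genes r was 0.18 and rho 0.26. Genes are not independent replicates, and all share the same 9 libraries. The 19 shorter members (382 to 782 bases) had a median of -0.93, and the 19 longer ones (838 to 2626 bases) one of -0.42. With a length trend removed from each library, 20 members fell and 5 rose (29.2% and 28.8% of all genes), the median was -0.42, and 25 members were called in the same direction as before. The part of length in the result was not tested beyond this.

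**Figure D5:**
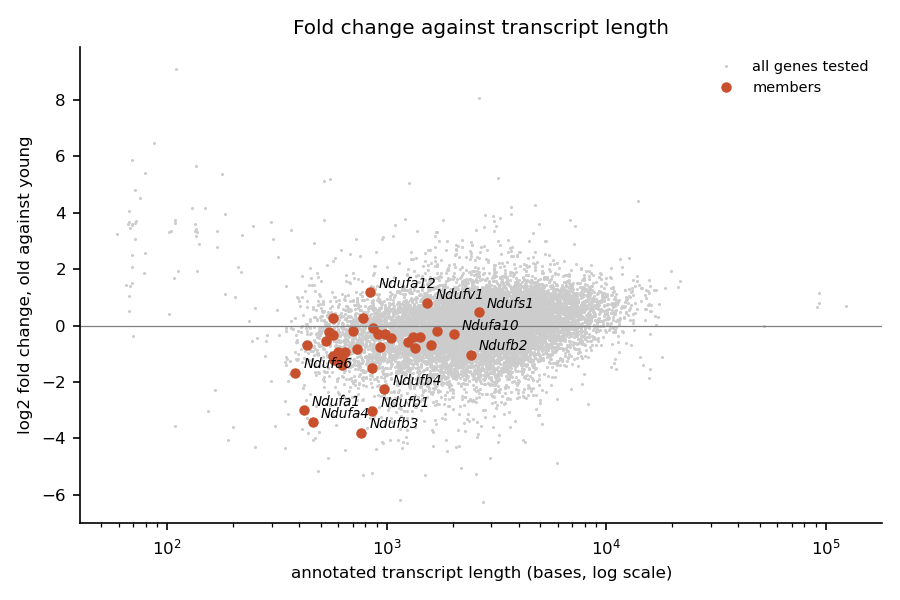
Log2 fold change of old against young kidneys (vertical axis) against annotated transcript length in bases (horizontal axis, log scale) for all genes tested (grey) and the 38 members (orange). The most lowered members, Ndufb3, Ndufa4, Ndufb1 and Ndufa1, are 419 to 861 bases long, and the raised Ndufa12, at 838 bases, lies in the same range of lengths.

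Several members share sequence with processed pseudogenes or overlapping genes, between which reads could have been split or lost. In the last 500 bases of its transcripts, Ndufs3 shared 53.9% of its 50-base words with other genes, Ndufs5 34.0% and Ndufa12 30.8%. For Ndufa12 the copy is the pseudogene Gm15920, which lies elsewhere in the genome, so its value is uncertain to that extent. Ndufb9 shared 29.0%, Ndufb2 27.2% and Ndufb8 9.42%, at least in part with Gm49356, Gm42420 and Gm20538, which overlap them on the same strand. Ndufb3 shared 10.6% with Gm45930, and Ndufa1, Ndufa4, Ndufb1, Ndufb4, Ndufv1 and Ndufs1 shared 0. The length and shared sequence of Ndufb1 rest on the entry Ndufb1-ps, which GENCODE vM21 lists as a non-coding gene. Among the 21 members with no shared sequence, 16 fell and 2 rose, with a median of -0.82. Over all genes tested with no shared sequence, 29.0% fell and 30.1% rose.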

How the data were processed

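The labels give 3 and 16 months as ages, wild type as genotype and kidney as tissue, and the paper names C57BL/6 mice. Oligo(dT)-primed, stranded single-read 3′ libraries were made from 500 ng of total RNA. The kit version differs between the labels and the methods. Per the submitters' processing notes and methods, the authors checked reads with FastQC 0.11.7, aligned them to GRCm39 with TopHat2 2.0.10, Bowtie 1.0.0 and SAMtools 0.1.19, counted them by strand with HTSeq 0.6.1 on GENCODE and normalized the counts with DESeq. What the authors deposited is this signal, in which each count is divided by the size factor of its library. Whole reads were recovered for 100% of the values (tolerance 0.01 reads). Genes with few reads were absent from the table, so totals cover listed genes only.

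Genes with at least 10 normalized counts in at least 4 libraries were tested with limma 3.58.1 (variance trend, two-sided, no covariate, R 4.3.3) on log2(normalized count + 1), with Benjamini-Hochberg adjustment over all genes. This scale understates the change of low genes. The scripts were tested on simulated data. The alternatives were other pseudocounts, filters and scalings, the recovered reads in DESeq2 1.42.0 and in edgeR 4.0.16 (quasi-likelihood), thinning, removal of a length trend, leaving out mitochondrial genes or genes with shared sequence, and leaving out each library. edgeR called 3817 genes lower and 3832 higher. The floor was set at 3 reads, which is at most 6.7e-05% of a library, for counting error only. The paper counts n as animals in general, but its figure caption for this cohort gives no n. Nothing in the labels says that each library came from a separate mouse, so p-values measure the spread between libraries. Replicates were numbered in listed order.

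The members and gene lists were chosen with earlier results of these data known. 1 member is counted throughout but not reported individually here, and the others were named. Library values were given for the 5 lowest and 5 highest log2 fold changes among members with a mean of at least 50 normalized counts, the core subunits and members not called. From each list, the lowest and highest genes and set regulators were named. Yy1 and Gabpb1 were named after their values were seen, and so were the motif split and ratios. The annotation for positions, lengths and shared sequence was GENCODE vM21 (GRCm38), an older build than that of the authors. Symbols placed 12997 of 13081 genes (99.4%), with all members, Ndufb1 by its RefSeq synonym Ndufb1-ps, listed there as non-coding.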

Additional observations from a re-analysis of the deposited data

Results flagged for a closer look

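Ndufb4 in old replicate 2 stood apart from the other old libraries, as this library did over all genes on the first principal component (34.0 against 47.2 to 56.5). On the log2 scale of normalized counts plus 1 it was at 8.90, where the other 4 old libraries lay between 8.13 and 8.22, and its gap to the nearest of them was 0.882 of the whole range of the group. The log2 fold change of Ndufb4 without this library was -2.39, and the gene was still called lower in old kidneys. The gaps of 80 groups were examined in this way, and chance alone gives such a flag in about 1 of 20 groups (4 of 80).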

How the results depend on the processing

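The members that fell numbered 16 among the 21 with no shared sequence, and those that rose numbered 2 there, the lower counts following from fewer genes tested. With each library left out in turn, 28 to 29 members fell, 3 to 5 rose and the median log2 fold change was -0.79 to -0.62. The count of 3 came without old replicate 4. The median was -0.82 with genes of shared sequence left out, -0.42 with the length trend removed and -0.55 after rescaling without mitochondrial genes. All 38 members were tested with the length trend removed and after that rescaling, and 21 with genes of shared sequence left out. The cause of these shifts was not tested. Signs turned with the length trend removed for Ndufa11 (0.11), Ndufb9 (0.13), Ndufs7 (0.22) and the median of complex III (0.10), for Ndufs7 also after that rescaling (0.055), and for the median of the regulators with genes of shared sequence left out (0.25) or with a mean of at least 100 normalized counts (0.17). Calls of 14 of the 38 members or their signs changed under some alternative, with 20 calls lost and 6 gained among 818 values. No paired analysis was run, since nothing in the labels pairs a young library with an old one.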
